A study of Mus musculus with 4 samples.

Results

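SR proteins and their Tra2 relatives are RNA-binding splicing factors, and 10 of their genes, Srsf1, Srsf2, Srsf3, Srsf5, Srsf6, Srsf7, Srsf10, Srsf11, Tra2a and Tra2b, were followed here at the level of the gene and of the single isoform in cells of the embryonic mouse brain. They were taken by symbol and make up 10 of the 27998 genes of the short-read (Illumina) matrix and, with every transcript row that carried one of these symbols, 54 of the 31986 isoforms of the long-read (Nanopore) matrices. The tissue was brain (hippocampus, cortex and sub ventricular zone) from a C57BL/6 animal at stage E18, or embryonic day 18, with no treatment or genetic change given. A single droplet emulsion was divided into 2 aliquots, labelled 190 and 951 cells, and both platforms read the barcoded cDNA of either aliquot, for 4 libraries in total. Illumina reads counted the 3′ ends of molecules per gene, and Nanopore reads counted molecules whose complete exon structure matched an annotated isoform. The aliquots are therefore technical replicates of the same cells in suspension, and every p-value below measures only the spread between them.

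Cells with at least 1400 Illumina genes were kept, which left 186 of 190 and 935 of 951 barcodes. The Illumina libraries then held 1809081 and 8295650 unique molecular identifiers (UMIs, tags that count single molecules), with a median of 8048.5 and 7551 per cell, and the Nanopore libraries held 993220 and 4889148 isoform-assigned UMIs, with a median of 4394 and 4487. The 10 genes accounted for 30945 Illumina and 18312 Nanopore UMIs, so the isoform values rest on far fewer molecules than the gene values, above all in the small aliquot. A total of 12 cell barcodes occurred in both aliquots, and results that changed without these cells are given with and without them. Cells were clustered without the 10 genes and the related lists used below, and clusters were named from marker genes. Cycling radial glia-like cells numbered 24 and 94 in the 2 aliquots, radial glia-like cells 13 and 56, intermediate progenitor-like cells 18 and 71, immature glutamatergic-like neurons 37 and 196, mature glutamatergic-like neurons 43 and 236, immature GABAergic-like neurons 31 and 142, and mature GABAergic-like neurons 17 and 127. Cajal-Retzius-like cells, with 3 and 13, were too few for the tests. Median Illumina UMIs per cell were 5817 and 4868 in mature GABAergic-like neurons and 13128 and 11328.5 in mature glutamatergic-like neurons. They were 10637 and 10672 in radial glia-like and 12193 and 9349.5 in cycling radial glia-like cells. The part of this difference in depth in the results was not tested. The intermediate progenitor-like cluster also held microglial genes among its leading genes, and 1 of the immature glutamatergic-like clusters had none of its own markers among its 10 leading genes. These classes and the immature GABAergic-like neurons are described but were not compared in the tests. Their sums were still part of the fits that set the spread. Among the tested classes, 1 of the mature glutamatergic-like clusters had 4 of 10 listed markers raised. Mature glutamatergic markers summed to 2619 and 2341 CPM in that class against 2095 and 1676 in mature GABAergic-like neurons, and it also had 2612 and 2880 CPM of immature glutamatergic markers. Radial glia markers summed to 3684 and 3501 CPM in cycling radial glia-like cells, near the 3293 and 3444 of intermediate progenitor-like cells and far below the 23043 and 27673 of radial glia-like cells. The radial glia-like class also held cycling markers, at 5059 and 3220 CPM. These markers summed to 171 and 94.2 in mature glutamatergic-like and 187 and 104 in mature GABAergic-like neurons. Their part in the neuron comparisons with radial glia-like cells was not tested.

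SR proteins bind short exonic sequences through RNA recognition motifs and, through domains rich in arginine and serine, help to recruit the spliceosome to the neighbouring splice sites. The Tra2 proteins have the same type of domain and bind purine-rich, GAA-containing exonic enhancers. Kinases of the SRPK and CLK families phosphorylate these domains and so set where the proteins reside and how active they are. Many SR genes hold a so-called poison exon, an alternative exon with an early stop codon. Transcripts that include it can be removed by nonsense-mediated decay, a surveillance pathway that recognises stop codons lying well upstream of an exon junction. Several of these proteins promote inclusion of the poison exon in their own transcripts or in those of relatives, which limits their own amount.

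The exons that set the non-coding isoforms apart from the main coding isoforms were read from the Gencode annotation of mouse build GRCm38. Srsf3 lies on the plus strand at chr17:29032628-29043373, and its isoform Srsf3-201 differs from the coding Srsf3-202 by a 456-base exon at chr17:29039454-29039909 that brings a TGA stop after 31 bases, 548 bases upstream of the last exon junction. Srsf6, on the plus strand at chr2:162931528-162937121, has a corresponding 268-base exon in Srsf6-201 at chr2:162932815-162933082 with a TAG stop after 149 bases, 534 bases before the last junction. Tra2a, on the minus strand at chr6:49243924-49264033, has a 306-base exon in Tra2a-202 at chr6:49252803-49253108 with a TAG stop after 141 bases, 964 bases before the last junction. Tra2b, on the minus strand at chr16:22244549-22266005, has a 276-base exon in Tra2b-206 at chr16:22258986-22259261 with a TGA stop after 78 bases, 1015 bases before the last junction. These 4 isoforms are annotated as substrates of nonsense-mediated decay. In Srsf10, on the plus strand at chr4:135855747-135869908, the 3-exon Srsf10-207 is annotated as a processed transcript without a reading frame, and its exon runs 62 bases further, at chr4:135858410-135858471, than in the coding Srsf10-202. If the coding frame is continued into this extension, a TGA follows after 37 bases, 22 bases before the last junction.

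The stretches from the start of each added exon or extension to its stop codon are shown because isoforms with them are counted below. They are written 5′ to 3′ on the strand of the gene, with the in-frame stop codon in capitals, and lie at chr17:29039454-29039487 (plus), chr2:162932815-162932966 (plus), chr6:49252965-49253108 (minus), chr16:22259181-22259261 (minus) and chr4:135858410-135858449 (plus), in the order listed.
Srsf3-201: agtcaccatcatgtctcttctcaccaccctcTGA
Srsf6-201: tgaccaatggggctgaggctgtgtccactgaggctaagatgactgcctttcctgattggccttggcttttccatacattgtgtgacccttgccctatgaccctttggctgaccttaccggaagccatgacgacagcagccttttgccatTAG
Tra2a-202: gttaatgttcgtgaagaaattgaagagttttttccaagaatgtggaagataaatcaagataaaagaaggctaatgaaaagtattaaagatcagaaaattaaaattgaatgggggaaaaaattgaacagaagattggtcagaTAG
Tra2b-206: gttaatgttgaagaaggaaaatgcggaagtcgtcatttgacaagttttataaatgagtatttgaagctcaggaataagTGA
Srsf10-207: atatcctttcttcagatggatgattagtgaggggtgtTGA

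The stretches of Tra2a and Tra2b start with the same 9 bases. GAAGAA, a purine-rich hexamer of the kind that Tra2 proteins bind, was searched on both strands (TTCTTC on the reverse) in the 4 decay-annotated stretches. It occurred 1 time on the gene strand in Tra2a-202 and 1 time in Tra2b-206, and not in Srsf3-201 or Srsf6-201. Among windows of the same length in the longest coding transcripts of 21877 genes, 16.5% (Tra2a length) and 9.51% (Tra2b length) held this hexamer on either strand, against 3.78% and 17.4% for windows of the Srsf3 and Srsf6 lengths. The hexamer is therefore common at these lengths, and a match is only a description of the letters.

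**Figure D1:**
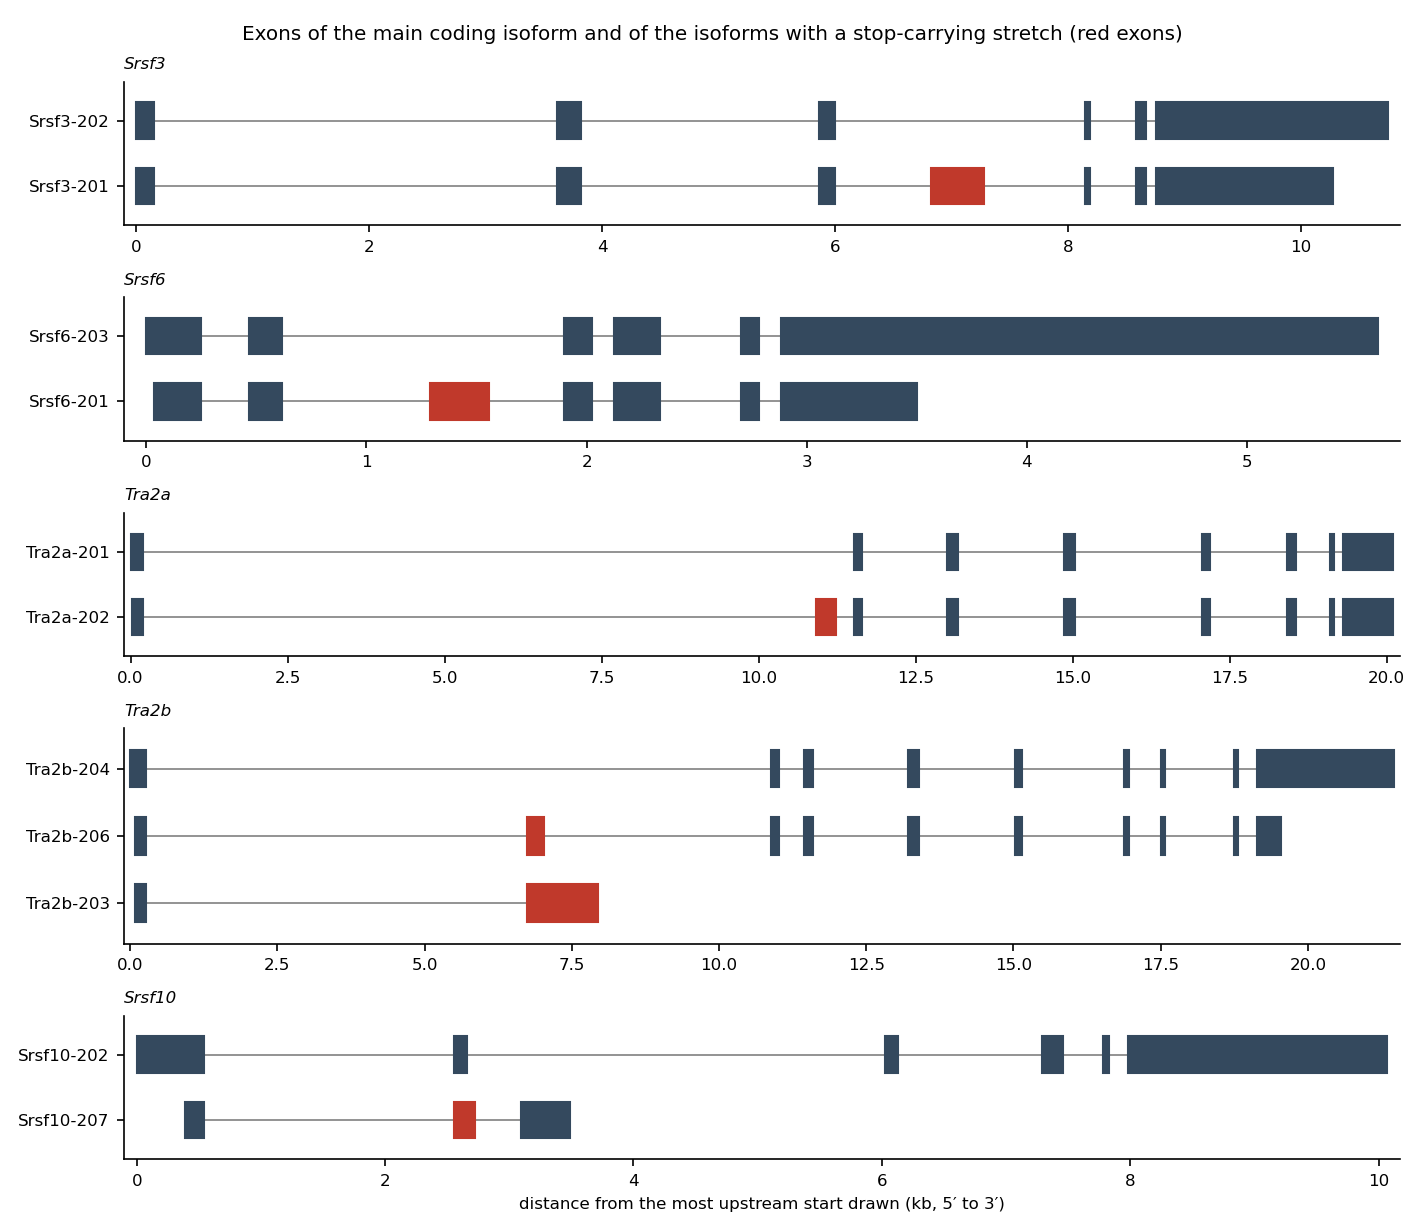
Exon structures of coding isoforms and of isoforms with an early stop for Srsf3, Srsf6, Tra2a, Tra2b and Srsf10, with distance in kb from the most upstream start on the x axis and boxes for exons (red for the exon with the stop-carrying stretch). The red exon lies between exons shared with the coding isoform in Srsf3-201, Srsf6-201, Tra2a-202 and Tra2b-206, whereas Tra2b-203 and Srsf10-207 end early, with 2 and 3 exons.

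Of the 18312 Nanopore UMIs of the 10 genes, 84.4% fell on 20 isoforms annotated as coding, 6.71% on 8 annotated as decay substrates, 6.14% on 19 with a retained intron and 2.77% on 7 processed transcripts. A total of 29 isoforms held at least 5% of their gene's UMIs, and the other 25 held 0.032 to 4.29% each. The genes differed widely in this makeup. All 2515 Srsf7 UMIs were on the coding Srsf7-201, and 96.5% of Srsf2 UMIs were on the coding Srsf2-201, with 3.12% on the decay-annotated Srsf2-204. Of 8 annotated Srsf7 isoforms, however, 7 had no row in the Nanopore matrices. The single annotated decay isoforms of Srsf7 and of Srsf5 had no row either, and Tra2b and Srsf11 had rows for 1 of 3 each. Whether isoforms without a row were absent from the RNA or not assigned was not tested. Srsf3 had 90.1% on Srsf3-202 and 9.40% on the poison-exon isoform Srsf3-201.

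Srsf5 was 96.8% coding but divided among Srsf5-201 (58.0%), Srsf5-205 (19.8%) and Srsf5-203 (18.2%), which share an annotated coding length of 807 bases and differ outside it. In Srsf1, the prototype of the family, the coding Srsf1-205, Srsf1-202 and Srsf1-201 held 54.8%, 16.7% and 7.72%, the retained-intron Srsf1-203 held 11.7% and the decay-annotated Srsf1-204 held 7.72%. Poison-exon isoforms were a larger part of Srsf6, with 78.0% on Srsf6-203 and 21.4% on Srsf6-201, and of Tra2a, with 65.7% on the coding Tra2a-201, 12.8% on the coding Tra2a-204 and 21.1% on Tra2a-202.

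In the other 3 genes, a smaller part of the isoform-assigned molecules lay on coding isoforms, 33.5% for Srsf10, 52.1% for Tra2b and 54.1% for Srsf11. Tra2b had 49.8% on the 9-exon coding Tra2b-204 and 44.2% on Tra2b-203, a 2-exon transcript of 1376 bases annotated as intron-retaining. The second exon of Tra2b-203 starts at the same acceptor as the poison exon of Tra2b-206 but runs on for 1198 bases. Counted together, isoforms that use this acceptor made up 547 of 1142 Tra2b UMIs (47.9%, 95% Clopper-Pearson interval 44.97 to 50.84%). Intervals here and below cover counting error only. Tra2b-203 held 505 of the 547, and the poison-exon isoform Tra2b-206 held 42, or 3.68% of Tra2b UMIs. With the coding frame continued, the stop of Tra2b-203 lies after its last junction, unlike that of Tra2b-206. Srsf10, a relative of the SR proteins that can act as a splicing repressor, had 60.2% on the 717-base Srsf10-207, 22.4% on Srsf10-202 and 11.1% on Srsf10-203. The stop-carrying stretch of Srsf10-207 also lies in Srsf10-201 (4.29%) and Srsf10-210 (2.07%), which the share of Srsf10-207 leaves out. Srsf11 was spread over 7 isoforms above 5%, with 40.6% on the coding Srsf11-204, 7.58% on Srsf11-201 and 5.98% on Srsf11-202, and with 18.2%, 10.3%, 6.33% and 5.35% on the intron-retaining Srsf11-216, Srsf11-208, Srsf11-211 and Srsf11-215. Isoforms of 3 exons or fewer took all Srsf2 UMIs, 62.2% of Srsf10, 44.2% of Tra2b, 40.2% of Srsf11 and 20.5% of Srsf1 UMIs, but none of the Srsf6, Srsf7 or Tra2a UMIs. The main coding Srsf2-201 itself has 3 exons, so the Srsf2 value does not mark shortened transcripts. The paper describes reverse transcription primed at internal A-rich sites, some of them intronic, and fragmented coverage of certain long transcripts. Their part in these shares was not tested, so the shares are those of assigned molecules and may differ from those of the RNA.

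**Figure D2:**
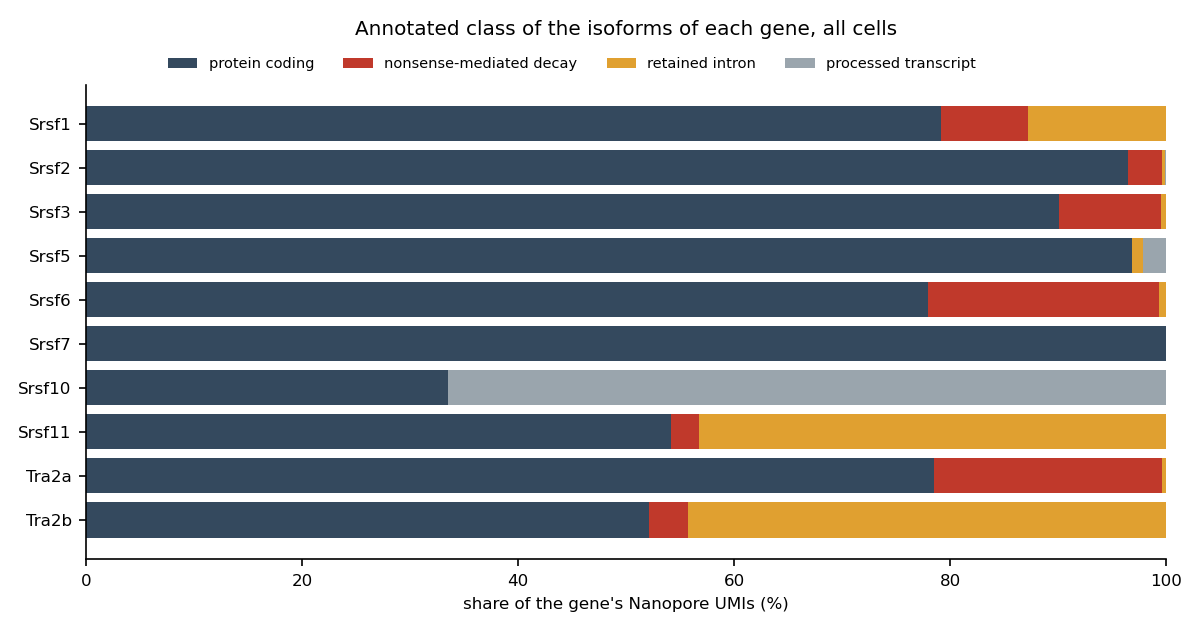
Stacked horizontal bars of the percentage of each gene's Nanopore UMIs (x axis, all kept cells of both aliquots, 1 bar per gene) on isoforms annotated as coding, decay substrate, retained intron or processed transcript. Coding isoforms fill the bars of Srsf7 and nearly those of Srsf2 and Srsf5, the decay class is largest in Srsf6 (21.4%) and Tra2a (21.1%), and Srsf10, Tra2b and Srsf11 have large blocks of other non-coding classes.

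All 10 genes were detected in most cells: the share of the 1121 cells with at least 1 Illumina UMI ranged from 63.5% for Srsf1 to 96.9% for Srsf3. No class among them was expected to lack these genes, so no background share was set beside these values. To compare classes, UMIs were summed per class and aliquot and expressed as CPM (counts scaled to a common library total) after adjustment by trimmed mean of M-values, here called scaled CPM. Between the class with the highest and the class with the lowest mean, levels differed 1.42-fold for Srsf11, 2.33-fold for Srsf3 and by values in between for the others. Cycling radial glia-like cells had the highest mean for Srsf2, Srsf3, Srsf5, Srsf7, Srsf10 and Tra2b. Radial glia-like cells had it for Srsf6, immature GABAergic-like neurons for Srsf1 and mature GABAergic-like neurons for Srsf11 and Tra2a. The Srsf1 value rests on disagreeing aliquots, 301 and 140 scaled CPM in immature GABAergic-like neurons, and that range overlaps the second class, cycling radial glia-like cells at 205 and 199.

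Srsf3, which couples splicing to mRNA export, had 1200 and 1199 scaled CPM in cycling radial glia-like cells, the 190-cell aliquot given first here and throughout. It followed with 793 and 765 in radial glia-like cells, 791 and 740 in immature GABAergic-like neurons, 650 and 718 in intermediate progenitor-like cells, 597 and 715 in immature glutamatergic-like neurons, 599 and 614 in mature glutamatergic-like neurons and 378 and 651 in mature GABAergic-like neurons. Only 2 of its 6 steps between neighbouring classes separated the aliquots, and the largest step set cycling cells apart from all others. The mature GABAergic-like aliquots of Srsf3 were far apart, and the lower rests on 42 UMIs.

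Tra2a, a homologue of the fly splicing factor transformer 2, had another order of classes. Its scaled CPM was 369 and 439 in mature GABAergic-like neurons, 342 and 367 in immature GABAergic-like neurons, 327 and 319 in immature glutamatergic-like neurons, 284 and 315 in cycling radial glia-like cells, 245 and 296 in mature glutamatergic-like neurons, 231 and 250 in intermediate progenitor-like cells and 200 and 204 in radial glia-like cells. With 4 of 6 neighbouring steps free of overlap, Tra2a had more separated steps than the other 9 genes, which had 0 (Srsf11) to 3. The classes were put in order of their mean before the steps were counted, and no such count was made over all genes. These step counts, that of Srsf3 included, are therefore only a description. Across the 14 sums, described without a test because the points share classes and libraries, Srsf2 and Srsf7 followed each other (Pearson r = 0.886), as did Srsf3 and Srsf5 (r = 0.845) and Srsf11 and Tra2a (r = 0.773), while Srsf10 and Tra2a had r = −0.462.

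**Figure D3:**
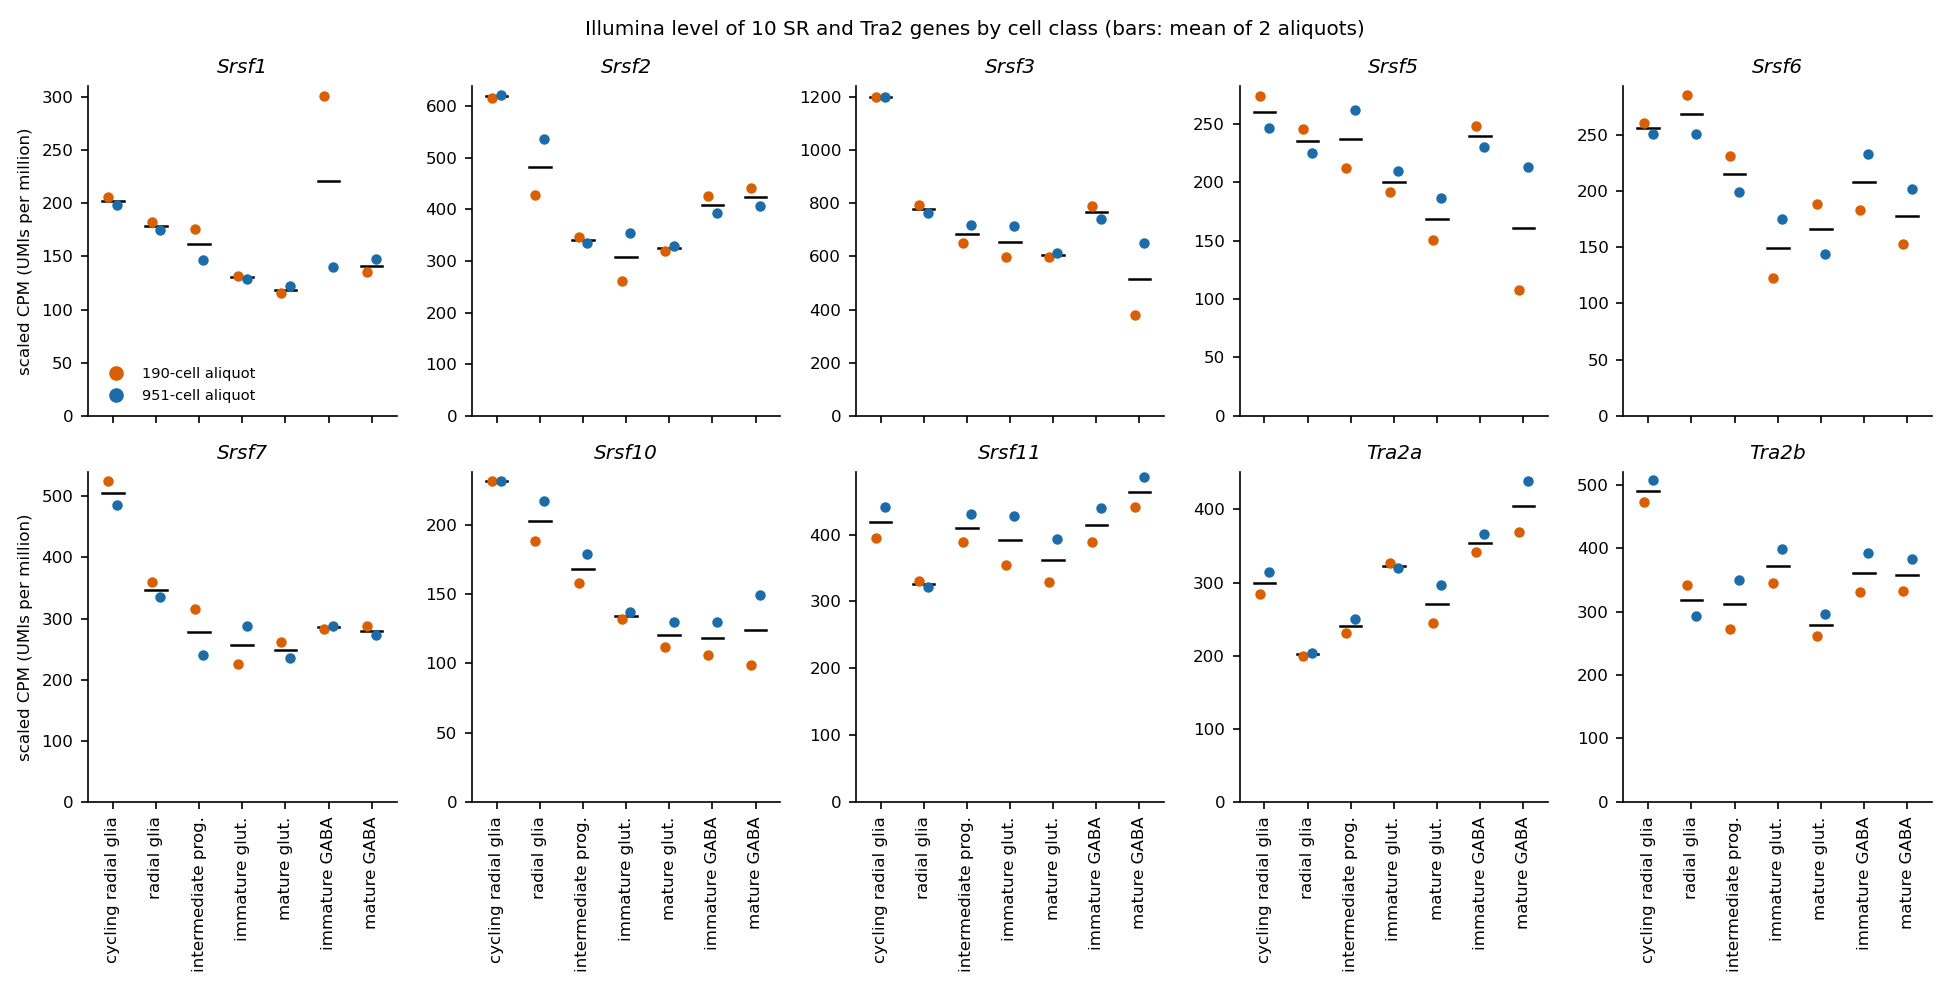
Scaled CPM (y axis) of each of the 10 genes in 7 cell classes (x axis), with points for the 190-cell aliquot (orange) and the 951-cell aliquot (blue) and bars for their mean. Cycling radial glia-like cells stand highest for 6 genes, Srsf3 among them at 1200 and 1199, whereas Tra2a is lowest in radial glia-like cells (200 and 204) and highest in mature GABAergic-like neurons (369 and 439).

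Mature glutamatergic-like neurons were first set against radial glia-like cells, a class of neural progenitors. Srsf2, Srsf6 and Srsf10 were lower in the neurons and none of the 10 genes was higher, whereas of all 8609 genes tested 16.4% were lower and 17% were higher. Srsf2 had 320 and 330 scaled CPM in the neurons and 428 and 536 in radial glia-like cells. Its log2 fold change was −0.58 ± 0.19 (SE, adjusted p = 0.0142, edgeR quasi-likelihood test). Srsf6 had 189 and 144 against 285 and 251, a change of −0.69 ± 0.22 (adjusted p = 0.0107). Srsf10 had 112 and 130 against 188 and 217, a change of −0.75 ± 0.21 (adjusted p = 0.00449). In all 3 genes both aliquots of the neurons lay below both aliquots of the progenitors, which describes the values behind the calls and adds no separate support. Without the filter on low counts, the adjusted p rose to 0.144 for Srsf2 and 0.0758 for Srsf6, and only Srsf10 remained called.

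The other 7 genes did not pass this test, with log2 differences of −0.57 for Srsf1, −0.48 for Srsf7, −0.45 for Srsf5, −0.36 for Srsf3, −0.17 for Tra2b, 0.15 for Srsf11 and 0.43 for Tra2a. The median over the 10 genes was −0.47, against −0.00028 over all genes tested. Because the aliquot number marks a shared library, the fit was repeated with the aliquot as a replicate block, and this pairing raised the count of called genes from 3 to 8, while the calls among all 8609 genes rose from 2877 to 3785. With the block, the adjusted p was 0.00483 for Srsf1, 0.00727 for Srsf3, 0.0359 for Srsf5, 0.00164 for Srsf7 and, in the opposite direction, 0.00485 for Tra2a. With median-ratio scaling in place of trimmed means 7 of the 10 genes were called, all lower, and 2969 of all genes, of which 1590 were lower. Without the cells of shared barcodes Srsf1 also passed (adjusted p = 0.0316).

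Mature GABAergic-like neurons gave another picture against the same radial glia-like sums, which both neuron comparisons share. Of the 10 genes, 2 were lower and 2 were higher, against 17.1% lower and 14.1% higher among all genes tested. Tra2a had 369 and 439 scaled CPM in the neurons and 200 and 204 in radial glia-like cells, a log2 fold change of 1.02 ± 0.21 (adjusted p = 0.000159), and no aliquots overlapped. Srsf11, an SR-related protein with many intron-retaining transcripts, had 441 and 486 against 331 and 322, a change of 0.52 ± 0.20 (adjusted p = 0.0417). Srsf3 had 378 and 651 against 793 and 765, a change of −0.55 ± 0.19 (adjusted p = 0.0264) that was carried by the 190-cell aliquot, −1.06 there and −0.23 in the 951-cell aliquot. Srsf10 had 99.1 and 149 against 188 and 217, a change of −0.62 ± 0.23 (adjusted p = 0.0390).

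Of these 4, Tra2a alone was called without the filter on low counts and by DESeq2. DESeq2 gave adjusted p = 0.0822 for Srsf3, 0.178 for Srsf10 and 0.0975 for Srsf11. Srsf3 also missed the threshold at the finer clustering (adjusted p = 0.144), and Srsf10 missed it without the cells of shared barcodes (adjusted p = 0.0595) and without called doublets (adjusted p = 0.0609). The other 6 genes did not pass, with differences of −0.52 for Srsf6, −0.39 for Srsf5, −0.31 for Srsf1, −0.31 for Srsf7, −0.21 for Srsf2 and 0.21 for Tra2b. The median over the 10 genes was −0.31, against −0.057 over all genes.

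Cycling radial glia-like cells were compared with radial glia-like cells. Srsf3 and Tra2b were higher in the cycling cells and none of the 10 genes was lower, against 5.6% higher and 6.2% lower among all genes tested. Srsf3 had 1200 and 1199 scaled CPM against 793 and 765, a log2 fold change of 0.62 ± 0.19 (adjusted p = 0.0221). Tra2b, the closest relative of Tra2a, had 473 and 508 against 342 and 293, a change of 0.64 ± 0.20 (adjusted p = 0.0259). The aliquots of both genes did not overlap between the classes, which describes the values behind the calls and adds no separate support. Neither gene passed without the filter on low counts (adjusted p = 0.0740 and 0.0920), and Tra2b did not pass with DESeq2 (adjusted p = 0.0678).

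Of the rest, Tra2a differed by 0.57 (284 and 315 against 200 and 204, adjusted p = 0.0631) and Srsf7 by 0.54 (525 and 486 against 359 and 336, adjusted p = 0.0697), without passing. Srsf11 differed by 0.36, Srsf2 by 0.35, Srsf1 by 0.18, Srsf10 by 0.17, Srsf5 by 0.15 and Srsf6 by −0.06. With the aliquot as a replicate block, Srsf7 (adjusted p = 0.00111), Tra2a (0.00178) and Srsf11 (0.0218) joined the called genes, 5 in all, while the calls among all genes rose from 1016 to 1655. Without the cells of shared barcodes Tra2a passed as well (adjusted p = 0.0477). The median over the 10 genes was 0.35, against −0.0077 over all genes. Cycling markers summed to 7358 and 5930 CPM in the cycling class and to 5059 and 3220 in the radial glia-like class, and radial glia markers to 3684 and 3501 against 23043 and 27673. Intermediate progenitor markers summed to 857 and 1004 CPM in the cycling class against 366 and 473 in the radial glia-like class. Immature GABAergic markers summed to 1813 and 1877 against 605 and 672. The classes thus differ in more than cycling, and the part of these markers in the result was not tested.

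Both mature neuron classes were then compared directly. None of the 10 genes was called by edgeR at an adjusted p of 0.05 or by DESeq2. Of the 10, only Tra2a had an unadjusted p under 0.05 (edgeR). Among all 8609 genes, edgeR called 3.07% lower and 5.98% higher in glutamatergic-like neurons. Unadjusted, 1603 of all genes had a p under 0.05 in edgeR, and DESeq2 called 325. Tra2a had 245 and 296 scaled CPM in glutamatergic-like and 369 and 439 in GABAergic-like neurons, with no overlap between aliquots. The log2 difference in the edgeR fit was −0.59 ± 0.20 (adjusted p = 0.0512). With the pairing of aliquots as a replicate block Tra2a was called (adjusted p = 0.000473), while the calls among all genes rose from 779 to 1287. Tra2a was called as well with median-ratio scaling (0.00987), without called doublets (0.0271) and without the cells of shared barcodes (0.0231). The other differences were −0.38 for Srsf2, −0.37 for Tra2b, −0.36 for Srsf11, −0.27 for Srsf1, −0.18 for Srsf6, −0.17 for Srsf7, −0.13 for Srsf10, −0.06 for Srsf5 and 0.19 for Srsf3.

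The long reads made it possible to ask whether the isoforms of a gene moved together. Isoform usage is here the division of a gene's molecules among its isoforms past the count filter. It was tested for 9 genes, since only Srsf7 had fewer than 2 such isoforms. The usage test covered 2 of 7 listed isoforms for Srsf1, 2 of 5 for Srsf10, 2 of 4 for Tra2a and 3 of 13 for Srsf11. In these genes it left out isoforms with at least 5% of the UMIs, whose usage was therefore not tested. The share of coding isoforms was tested for 8 genes, Srsf5 having no non-coding isoform past the filter. Among all genes tested, usage differed for 16.4% between mature glutamatergic-like neurons and radial glia-like cells, for 12.8% between mature GABAergic-like neurons and radial glia-like cells, for 3.98% between cycling radial glia-like and radial glia-like cells and for 1.53% between the mature neuron classes. The coding share differed for 5.26%, 4.56%, 0% and 0.702% of genes in the same order.

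Against this background, 0 of 9 genes changed usage and 0 of 8 changed coding share between mature glutamatergic-like neurons and radial glia-like cells in edgeR, with 0 unadjusted p-values under 0.05 in either test and 0 calls by limma. Between cycling radial glia-like and radial glia-like cells the counts were also 0 of 9 and 0 of 8, with 1 unadjusted p under 0.05 in each, that of Srsf3, and 0 calls by limma. In mature GABAergic-like neurons, usage differed from radial glia-like cells in 2 of 9 genes, Srsf3 (adjusted p = 0.00960) and Srsf6 (adjusted p = 0.0245), and the coding share in 1 of 8, Srsf3 (adjusted p = 0.0210). A direct test between both mature neuron classes, added after the data had been seen, gave 1 of 9 genes for usage (Srsf3, adjusted p = 0.000647) and 1 of 8 for the coding share (Srsf3, adjusted p = 0.00184).

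The Srsf3 isoform with the poison exon had its lowest share in mature glutamatergic-like neurons. Srsf3-201 took 4.67 and 4.92% of Srsf3 UMIs there, 6.84 and 6.87% in radial glia-like cells, 11.2 and 10.1% in cycling radial glia-like cells and 20.5 and 12.5% in mature GABAergic-like neurons, where the gene had 39 and 351 UMIs. The aliquots of the mature GABAergic-like neurons lay above all aliquots of the other 3 tested classes, though far from each other. Pooled over aliquots, the share was 4.88% (95% interval 3.86 to 6.08%) in mature glutamatergic-like and 13.3% (10.1 to 17.1%) in mature GABAergic-like neurons, with 14.4% in intermediate progenitor-like cells, 12.8% in immature GABAergic-like and 10.7% in immature glutamatergic-like neurons. The share of the major coding isoform Srsf3-202 was 8.64 percentage points higher in mature glutamatergic-like than in mature GABAergic-like neurons, 14.3 in the 190-cell and 8.08 in the 951-cell aliquot. Between mature GABAergic-like neurons and radial glia-like cells it differed by −6.94 points, −13.7 and −6.16 in the respective aliquots.

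The poison-exon isoform of Srsf6, Srsf6-201, took 17.7 and 13.4% in mature glutamatergic-like neurons, 13.2 and 15.5% in radial glia-like cells, 27.0 and 15.1% in cycling radial glia-like cells and 25 and 33.7% in mature GABAergic-like neurons, where the 190-cell aliquot held only 12 Srsf6 UMIs. The GABAergic-like aliquots lay above those of mature glutamatergic-like neurons and radial glia-like cells and overlapped those of cycling cells. Pooled, it was 14.2% (10.6 to 18.4%), 15.1% (10.4 to 20.8%), 17.9% (13.5 to 23.0%) and 32.8% (24.3 to 42.1%) in these classes, and 33.3% in intermediate progenitor-like cells, 25.1% in immature GABAergic-like and 24.2% in immature glutamatergic-like neurons. The share of the coding Srsf6-203 differed by −18.04 percentage points between mature GABAergic-like neurons and radial glia-like cells, −11.8 and −18.5 in the 2 aliquots. Between the mature neuron classes the difference was 18.8 points, 7.26 in the 190-cell and 20.5 in the 951-cell aliquot, and did not pass (adjusted p = 0.0615). With the pairing of aliquots as a replicate block it did (adjusted p = 0.00727), as it did with limma (adjusted p = 0.0253) and without the cells of shared barcodes (adjusted p = 0.0425).

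For Srsf2, the decay-annotated Srsf2-204 was pooled to 1.95% (1.07 to 3.25%) of UMIs in mature glutamatergic-like and 8.70% (5.24 to 13.4%) in mature GABAergic-like neurons, with 2.53% in radial glia-like cells. Its usage did not pass between the neuron classes (adjusted p = 0.0751) but did with the aliquot as a replicate block (adjusted p = 0.0262) and with limma (adjusted p = 0.0141). Tra2a-202 ranged from 11.7% (7.17 to 17.6%) in mature glutamatergic-like neurons to 32.7% (24.2 to 42.2%) in immature glutamatergic-like neurons, with 26.5% (14.9 to 41.1%) in mature GABAergic-like neurons and 18.5% (9.25 to 31.4%) in radial glia-like cells. The Tra2a intervals are wide because the gene had 46 to 163 isoform-assigned UMIs per class, and Tra2a passed no usage test. Without the filter on low counts no usage call was left for the 10 genes, and of the coding shares only that of Srsf3 between the neuron classes was left (adjusted p = 0.0498).

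**Figure D4:**
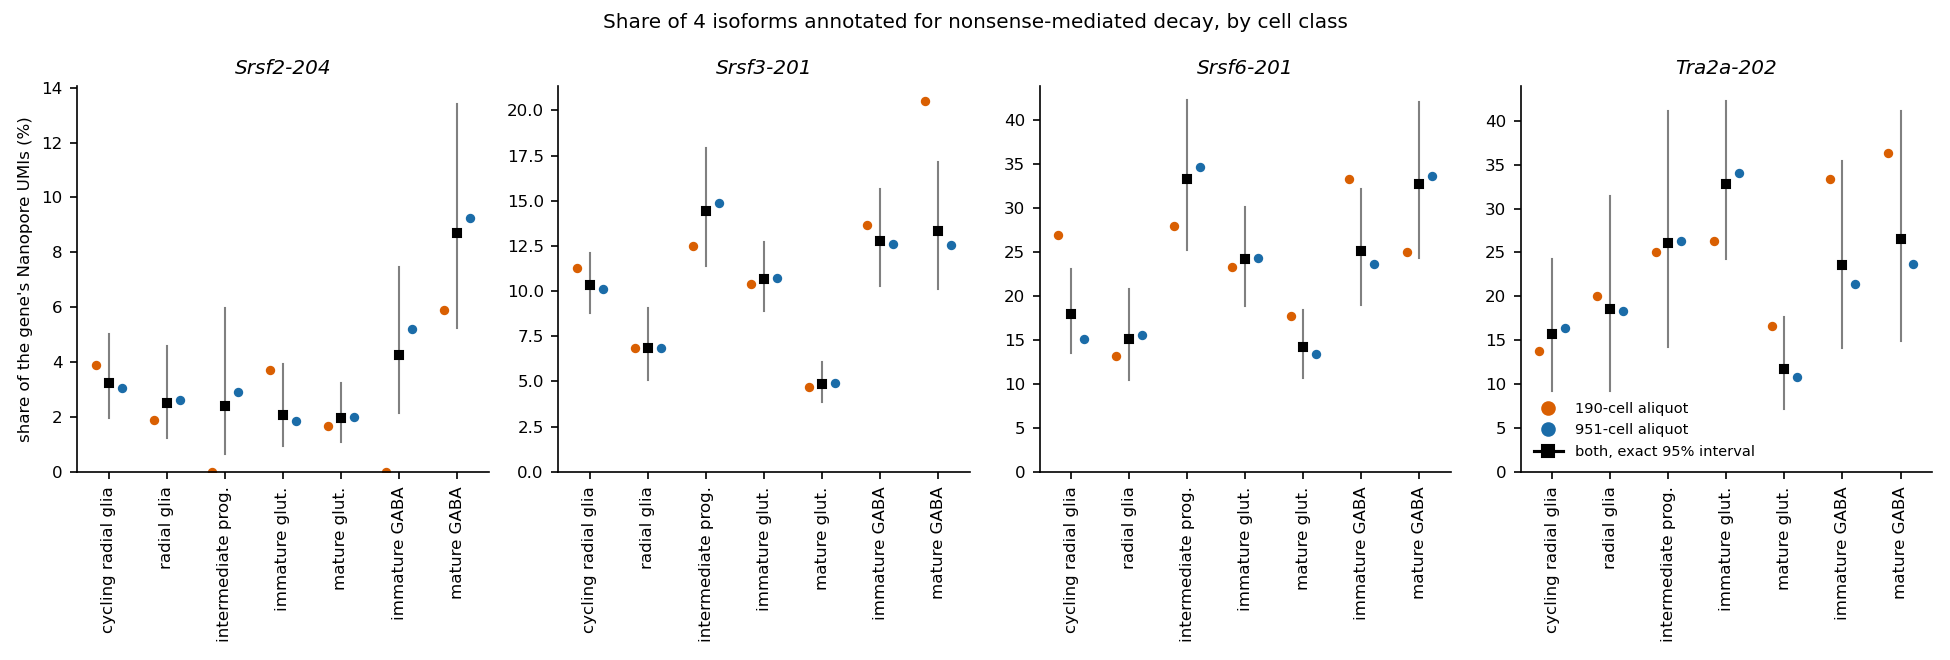
Percentage of each gene's Nanopore UMIs (y axis) on Srsf2-204, Srsf3-201, Srsf6-201 and Tra2a-202 in 7 cell classes (x axis), with points for the aliquots and the pooled share with its exact 95% interval. Mature glutamatergic-like neurons have the lowest pooled share in every panel (1.95, 4.88, 14.2 and 11.7%), and mature GABAergic-like neurons lie at 8.70, 13.3, 32.8 and 26.5%.

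For the remaining genes, which passed neither the usage nor the coding test, the shares are given as values. Srsf5-205 took 29.6% (22.1 to 38.1%) of Srsf5 UMIs in radial glia-like cells, 36.3% in intermediate progenitor-like cells, 18.2% in mature glutamatergic-like neurons and 9.09% (3.41 to 18.7%) in mature GABAergic-like neurons. Its usage difference between the latter and radial glia-like cells had an adjusted p of 0.0716, and 0.0413 with the aliquot as a replicate block. The share of Srsf10 UMIs on Srsf10-207 was lowest in mature glutamatergic-like neurons, at 48.9% (41.2 to 56.5%), and highest in cycling radial glia-like cells, at 68.6% (60.2 to 76.1%). Isoforms using the poison-exon acceptor of Tra2b ranged from 38.1% (32.4 to 43.9%) in mature glutamatergic-like neurons to 61.7% (50.3 to 72.3%) in intermediate progenitor-like cells. Over all cells, 505 of the 547 UMIs with this acceptor were on the 2-exon Tra2b-203. The non-coding isoforms of Srsf1 summed to 12.6% (7.51 to 19.4%) in mature glutamatergic-like and 32.1% (19.9 to 46.3%) in mature GABAergic-like neurons, on 135 and 53 UMIs.

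The level of each isoform was tested as well, a comparison likewise added after the data had been seen, with 21 isoforms of the 10 genes among the 5438 past the filter. Between mature glutamatergic-like neurons and radial glia-like cells, 6 of the 21 were lower and none higher, against 20.7% lower and 18.8% higher among all isoforms. They were coding and non-coding alike. Srsf3-201 had 44.7 and 43.9 scaled CPM against 82.8 and 80.5 (log2 fold change −0.87 ± 0.31, adjusted p = 0.0174), and Srsf6-203 had 190 and 161 against 341 and 286 (−0.83 ± 0.21, adjusted p = 0.000938). Srsf2-201 had 439 and 408 against 538 and 706 (−0.61 ± 0.18, adjusted p = 0.00353, −0.30 in the 190-cell aliquot alone), and Srsf7-201 had 387 and 345 against 528 and 540 (−0.57 ± 0.18, adjusted p = 0.00771).

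Srsf10-207 had 33.5 and 52.9 against 134 and 93.3 scaled CPM, a change of −1.10 ± 0.33 (adjusted p = 0.00457), with −1.98 in the 190-cell and −0.82 in the 951-cell aliquot. Srsf5-205 had 14.9 and 33.4 against 93.1 and 65.7, a change of −1.30 ± 0.40 (adjusted p = 0.00595), with −2.55 and −0.98 in the respective aliquots. For all 6 isoforms both neuron values lay below both progenitor values, which describes the values behind the calls and adds no separate support. Srsf3-202 missed the threshold, at 898 and 844 against 1128 and 1087 (−0.35 ± 0.15, adjusted p = 0.0566).

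In mature GABAergic-like neurons, 3 of the 21 isoforms were lower than in radial glia-like cells and none was higher, against 19.9% lower and 15.9% higher among all isoforms. Srsf3-202 had 541 and 857 scaled CPM against 1128 and 1087 (−0.54 ± 0.16, adjusted p = 0.00579), with −1.04 in the 190-cell and −0.34 in the 951-cell aliquot. Srsf6-203 had 157 and 192 against 341 and 286 (−0.71 ± 0.25, adjusted p = 0.0172). Srsf5-205 had 17.4 and 14.1 against 93.1 and 65.7 (−2.28 ± 0.60, adjusted p = 0.00166). Srsf3-202 and Srsf6-203 are the coding partners of the poison-exon isoforms Srsf3-201 and Srsf6-201, which did not pass. Srsf3-201 had 140 and 124 against 82.8 and 80.5 (0.65 ± 0.32, adjusted p = 0.111), and Srsf6-201 had 52.3 and 98.7 against 51.7 and 53.0 (0.76 ± 0.42, adjusted p = 0.151).

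Cycling radial glia-like cells had 4 of the 21 isoforms higher than radial glia-like cells and none lower, against 8.13% higher and 6.75% lower. Both Srsf3 isoforms rose, Srsf3-201 at 223 and 198 against 82.8 and 80.5 (1.35 ± 0.27, adjusted p = 0.000158) and Srsf3-202 at 1760 and 1758 against 1128 and 1087 (0.67 ± 0.15, adjusted p = 0.000540). Srsf7-201, the product of a gene whose protein carries a zinc knuckle, had 861 and 801 against 528 and 540 (0.63 ± 0.18, adjusted p = 0.00837). The short Tra2b-203 had 136 and 139 against 124 and 57.2 (0.93 ± 0.33, adjusted p = 0.0411), a difference that was 0.11 in the 190-cell aliquot alone and did not pass with median-ratio scaling (adjusted p = 0.0515) or without called doublets (adjusted p = 0.0533).

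In the direct comparison of the mature neuron classes, 3 of the 21 isoforms were lower in glutamatergic-like neurons and none was higher, against 3.75% lower and 6.16% higher among all isoforms. All 3 are annotated decay substrates. Srsf3-201 had 44.7 and 43.9 scaled CPM in glutamatergic-like and 140 and 124 in GABAergic-like neurons (−1.52 ± 0.30, adjusted p = 0.000145). Srsf2-204 had 7.45 and 8.36 against 34.9 and 45.1 (−2.35 ± 0.68, adjusted p = 0.0135), on 14 and 18 UMIs in all. Srsf6-201 had 41.0 and 25.1 against 52.3 and 98.7 (−1.63 ± 0.39, adjusted p = 0.00206), with −0.51 in the 190-cell and −1.98 in the 951-cell aliquot. The fourth decay-annotated isoform in the fit, Tra2a-202, had 14.9 and 10.4 against 69.8 and 25.4 and did not pass (−1.51 ± 0.62, adjusted p = 0.124).

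With the aliquot as a replicate block, Srsf10-207 (adjusted p = 0.0418) and Tra2b-203 (adjusted p = 0.0345) were also lower in glutamatergic-like neurons, 5 isoforms in all. Without the filter on low counts none of the 21 was called in this comparison, and the adjusted p was 0.0889 for Srsf2-204, 0.109 for Srsf3-201 and 0.156 for Srsf6-201. The same setting left none of the 6 isoforms called between mature glutamatergic-like neurons and radial glia-like cells, 1 of the 3 for mature GABAergic-like neurons and 2 for cycling cells. Erythroid markers summed to 530 to 745 CPM in the 4 tested classes and microglial markers to at most 2.59, and their part in these results was not tested.

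The number of Nanopore UMIs recovered per Illumina UMI differed between the genes, with a median of 50 per 100 over all genes. In the 2 aliquots it was 83.9 and 87.8 for Srsf3, 80.6 and 89.0 for Srsf7, 72.5 and 80.5 for Srsf6 and 67.6 and 73.2 for Srsf2. At the other end stood Tra2a with 21.7 and 20.4, Srsf11 with 30.8 and 28.5 and Tra2b with 32.1 and 33.5. Srsf5 (54.3 and 58.0), Srsf10 (45.7 and 48.6) and Srsf1 (45.8 and 37.2) lay near the median. In edgeR 4 genes were higher and 3 lower on Nanopore relative to all genes, against 20.2% higher and 30.3% lower among the 9855 genes tested. The log2 differences were 0.72 ± 0.08 for Srsf3 (adjusted p = 0.00110) and −1.31 ± 0.10 for Tra2a (adjusted p = 0.000317), and the other 5 called genes lay between. Srsf1 was not called (−0.35 ± 0.21, adjusted p = 0.222), but was with the pairing of aliquots as a replicate block (adjusted p = 0.000962) and without the Nanopore library of the 190-cell aliquot (adjusted p = 0.00146). Srsf5 was called with the block alone (0.11 ± 0.09, adjusted p = 0.361, and 0.0322 with the block). The isoform shares of Tra2a, Srsf11 and Tra2b thus describe a smaller part of the molecules counted by Illumina than those of Srsf3 or Srsf7.

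**Figure D5:**
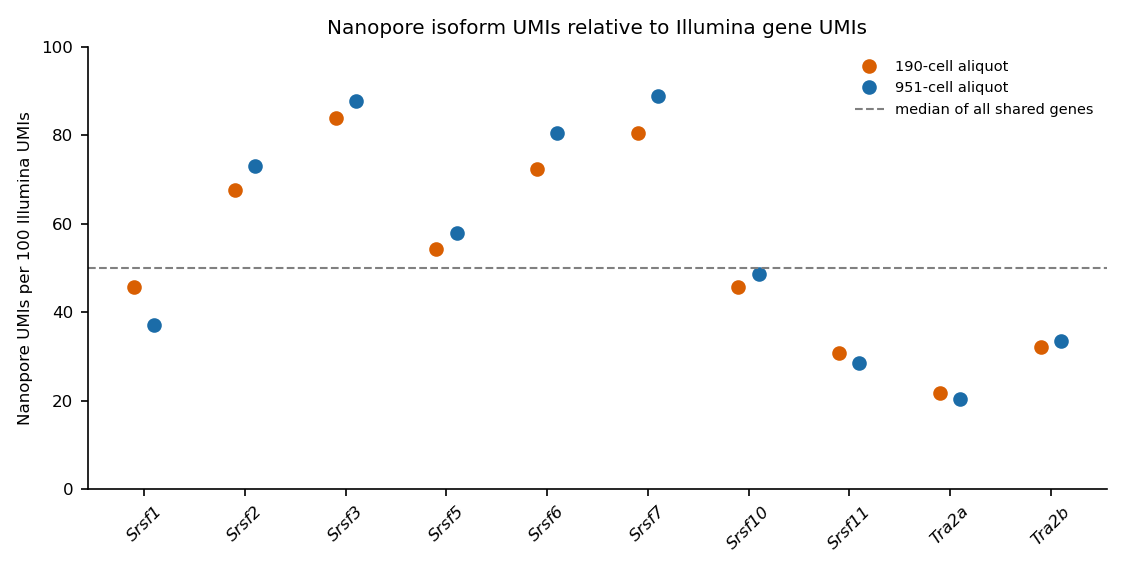
Nanopore isoform-assigned UMIs per 100 Illumina UMIs (y axis) for each of the 10 genes (x axis), with points for the aliquots and a dashed line at the median of all genes (50). Srsf3 and Srsf7 lie between 80.6 and 89.0, and Tra2a lies at 21.7 and 20.4.

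The partners of these genes were counted in 4 lists at the gene level. Against radial glia-like cells, 17% of all genes were higher and 16.4% lower in mature glutamatergic-like neurons. The shares were 14.1% and 17.1% in mature GABAergic-like neurons and 5.6% and 6.2% in cycling cells. Between the neuron classes, 5.98% were higher and 3.07% lower in glutamatergic-like neurons. Unadjusted edgeR p-values were under 0.05 for 3569 of 8609 genes in mature glutamatergic-like neurons and 1964 in cycling cells, each against radial glia-like cells. Between the neuron classes this held for 1603 genes. Of the other SR proteins (3 listed, 2 tested), Srsf9 was lower than in radial glia-like cells in both mature neuron classes, by −1.77 ± 0.28 in glutamatergic-like (32.8 and 34.4 against 103 and 122 scaled CPM) and −1.67 ± 0.34 in GABAergic-like neurons (27.0 and 38.5). The kinases and import receptor of SR proteins (10 listed, 8 tested) had 1 higher in mature glutamatergic-like and 2 higher in mature GABAergic-like neurons than in radial glia-like cells, none called in cycling cells (2 at an unadjusted p under 0.05), and 2 lower in glutamatergic-like than in GABAergic-like neurons. Clk4, a kinase of SR proteins, was among them, with 81.1 and 112 scaled CPM in mature GABAergic-like neurons, 51.4 and 43.5 in radial glia-like cells and 53.9 and 48.1 in mature glutamatergic-like neurons. Its log2 differences were 1.19 ± 0.32 (adjusted p = 0.00294) and −1.05 ± 0.28 (adjusted p = 0.00801). The kinase Prpf4b was the other, lower in glutamatergic-like neurons by −0.80 ± 0.25, with overlapping aliquots.

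Of 16 SR-related cofactors, 1 was higher and 2 were lower in mature glutamatergic-like neurons, 5 were higher in mature GABAergic-like neurons and 2 were higher in cycling cells than in radial glia-like cells, and 1 was lower in glutamatergic-like than in GABAergic-like neurons. The shares over all genes given before the lists apply to these counts too. DESeq2 called 2, 2, 0 and 0 cofactors in these comparisons, so the calls in cycling cells and between the neuron classes were lost with it. Over all genes it called 1656, 1535, 315 and 325 in the same order, against 2877, 2686, 1016 and 779 with edgeR. Its calls were thus fewer over all genes too. Srrm4, a neural splicing activator of microexons, had 179 and 134 scaled CPM in mature glutamatergic-like and 153 and 189 in mature GABAergic-like neurons against 5.71 and 16.9 in radial glia-like cells (3.38 ± 0.32 and 3.59 ± 0.34). It had 39.1 and 48.6 in cycling cells (1.63 ± 0.38), where Luc7l was higher too (0.86 ± 0.26). Srek1 was lower in mature glutamatergic-like neurons than in radial glia-like cells (−0.83 ± 0.22), and Pnn, a component of nuclear speckles, was lower than in mature GABAergic-like neurons (−0.77 ± 0.22). Of the 15 genes of the exon junction complex and nonsense-mediated decay, 14 were tested. None was called by edgeR in mature glutamatergic-like neurons against radial glia-like cells (2 at an unadjusted p under 0.05) or against GABAergic-like neurons (1 at that level), 1 was higher in mature GABAergic-like neurons and 2 were higher in cycling cells, among them Eif4a3, the RNA helicase at the core of the junction complex (222 and 189 against 103 and 138 scaled CPM, 0.69 ± 0.23, adjusted p = 0.0394). DESeq2 called none of the kinases or of the decay and junction genes in any comparison, and its lower counts over all genes apply here too.

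Finally, the genes outside the 10 whose log2 CPM followed each one most closely over the 14 sums were listed as a description, with no test, because all points share the same classes and aliquots. Srsf2 was closest to Kif20b and Lig1 (both r = 0.926), Srsf3 to Ncapd3 (0.945) and Rfc4 (0.939) and Srsf7 to Fen1 (0.955) and Lig1 (0.940). Srsf6 was closest to Sall1 (0.897) and Notch1 (0.886), Srsf10 to Impdh2 (0.955) and Thoc7 (0.945), Srsf5 to Stag1 (0.936) and Dnttip2 (0.928) and Srsf1 to Tox3 (0.885) and Gabpb1 (0.872). Srsf11 was closest to Ick (0.866) and Sf3b1 (0.842), a core subunit of the spliceosome, Tra2a to Hdgfrp3 (0.931) and Ilf2 (0.921), and Tra2b to Ubald2 (0.890) and Cbx1 (0.872).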

How the data were processed

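Single cells of an E18 mouse brain were profiled by short and long reads from the same barcoded cDNA in 2 aliquots. The authors deposited raw counts of UMIs per gene and cell from Cell Ranger 2.0 (Illumina, mm10/GRCm38) and raw counts of UMIs per isoform and cell from minimap2 and Sicelore (Nanopore, Gencode vM18, complete exon structure). Isoform classes, exons and sequences came from Gencode vM21, which held 54 of the 54 isoforms, 49 with the same version. The version differed for Srsf3-201, Srsf3-202, Srsf3-204, Srsf3-205 and Srsf7-201, and whether their exons differ between the releases was not checked. No genome or protein sequence was used. Cells of shared barcodes were not merged, and 3 and 4 doublets (1.61% and 0.428%) were called and kept. How Cell Ranger treated reads shared with near-identical gene copies was not checked here.

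Cells with at least 1400 genes were clustered with Seurat 5.3.0 in R 4.3.3 (2000 variable genes, 11 dimensions, resolution 0.8) after 54 list genes had been kept out, and clusters were named from marker lists. Of these 54, only 1 was a variable gene when they were allowed, and it was not among the 10 genes. Raw counts were summed per aliquot and class, 14 sums of 7 classes with at least 5 cells per aliquot. edgeR 4.0.16 (TMM scaling, filterByExpr, robust quasi-likelihood test, adjusted p by Benjamini-Hochberg over all features tested and called below 0.05) gave level tests, and diffSpliceDGE gave gene-level tests of isoform usage and of coding against other isoforms. The platform test used 4 libraries and 12561 symbols in both matrices. Scripts were tested on simulated data. Alternatives were DESeq2 1.42.0, limma 3.58.1, median-ratio scaling, no filter, resolution 1.2, the lists among the variable genes, no doublets, each aliquot alone (a difference without a test, with 0.5 counts added) and the aliquot as a block. Without the cells of shared barcodes, the direct isoform comparison of the neuron classes and the isoform-level tests were added after seeing the data. Aliquots pair samples because the number marks 1 library, and deviations from class means correlated between classes of an aliquot (median r = 0.219, 0.139 to 0.338) and between platforms (r = 0.597). The genes, lists and markers were chosen with earlier results of these data known. All 10 genes and isoforms of at least 5% were named, of the lists up to 3 called genes with the smallest adjusted p per comparison, and the 2 most correlated genes for each. Srsf2-204 and Tra2b-206 fall below 5% and were named after their values were seen.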

Additional observations from a re-analysis of the deposited data

Results flagged for a closer look

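Isoform measures of Srsf2, Srsf3 and Srsf6 differed between both mature neuron classes in a direct test, which compares their differences from the radial glia-like sums they share. For Srsf2 and Srsf6 only an isoform level was called. Their usage (adjusted p = 0.0751 and 0.0615) and coding share (both 0.0845) did not pass in edgeR. For Srsf3, isoform usage had an adjusted p of 0.000647 and the coding share an adjusted p of 0.00184 (edgeR), with 4.88% of UMIs on the poison-exon isoform in mature glutamatergic-like and 13.3% in mature GABAergic-like neurons and the same direction in both aliquots. The level of Srsf3-201 differed by −1.52 on the log2 scale, that of Srsf6-201 by −1.63 and that of Srsf2-204 by −2.35, each lower in glutamatergic-like neurons in both aliquots. The usage and coding tests of Srsf3 use nearly the same counts, and its Srsf3-201 level draws on them too, so they are not separate support. These tests were added after the values had been seen, and the 190-cell aliquot held 17 mature GABAergic-like cells. Without the filter on low counts, none of these isoform levels was called, nor was the usage of Srsf3.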

How the results depend on the processing

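With the aliquot as a replicate block, the calls among the 10 genes rose from 3 to 8 for mature glutamatergic-like neurons against radial glia-like cells, from 2 to 5 for cycling cells and from 0 to 1 for the direct neuron comparison. Calls over all genes rose too, from 2877 to 3785, from 1016 to 1655 and from 779 to 1287 in the same order. Isoform usage rose from 2 to 4 (mature GABAergic-like against radial glia-like) and from 1 to 3 (direct), the coding share from 1 to 2 and from 1 to 3, and the isoform level from 3 to 5 (direct); the block moved no other count by over 1.5 times. Without the filter on low counts, the gene-level calls fell to 1 in each neuron class against radial glia-like cells and to 0 in cycling cells. Over all genes they went from 2877 to 3201 (glutamatergic-like), from 2686 to 2619 (GABAergic-like) and from 1016 to 942 (cycling). Usage and the GABAergic-like coding share fell to 0, and isoform levels to 0, 1, 2 and 0 in the glutamatergic-like, GABAergic-like, cycling and direct comparisons. DESeq2 called 1 gene each for GABAergic-like neurons and cycling cells, and 1535 and 315 over all genes, against 2686 and 1016 with edgeR. Median-ratio scaling called 7 (glutamatergic-like), 4 (cycling) and 1 (direct), and 2969, 1025 and 779 over all genes. Clustering with the lists allowed among the variable genes called 4 (cycling), 1 (direct) and 2 coding shares (GABAergic-like). The gene-level calls over all genes were then 1059 (cycling) and 760 (direct). Only 1 list gene and 0 of the 10 genes were variable genes in that clustering. This alternative therefore cannot show whether the 10 genes shape the classes. Resolution 1.2 called 2 coding shares each for GABAergic-like and direct and 2 usages (direct). limma called 3 usages and 3 coding shares (direct). For usage, coding share and isoform level, calls over all genes under these alternatives are not set beside the counts. The counts alone therefore do not show whether a shift was general. Leaving out doublets or shared barcodes called 1 gene (direct), with 717 and 699 over all genes, and the latter 2 usages (direct). Platform calls were 7 to 8 with 1 library left out. No called gene, isoform or share changed sign under these alternatives, and the cause of these shifts was not tested. A single aliquot leaves no residual degrees of freedom, and the 190-cell aliquot, with 12 to 39 UMIs of Srsf6 and Srsf3 in mature GABAergic-like neurons, limits the precision of isoform shares.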
